A study of Mus musculus with 5 samples.

Results

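The cells described are kidney phagocytes that carried transcripts of interferon-inducible genes, called interferon-high cells below. They were selected on their own transcript counts in the 4 droplet libraries, counted as UMIs (unique molecular identifiers, each standing for 1 captured transcript). Barcodes under 200 genes or over 50% mitochondrial UMIs were dropped. A phagocyte gate asked for at least 5 UMIs of Tyrobp and Fcer1g together, at least 1 UMI of Csf1r, and none of the T cell gene Cd3e or the dendritic cell genes Xcr1, Cd209a and Ccr7. Among 2510 gated phagocytes, the 276 interferon-high cells had at least 5 UMIs summed over Cxcl9, Cxcl10, Ifit1, Ifit3 and Rsad2. They were part of 13823 cells kept and 16876 deposited. Gated cells of the same library with a sum of 0 are called comparison cells.

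The kidneys came from C57/BL6 mice aged 8 weeks, and the groups were sham surgery (day 0), 2 days and 7 days of unilateral ureteric obstruction (UUO, blockage of the ureter of 1 kidney), and reversed UUO, taken 7 days after the blockage was removed, on experimental day 14. The cells of 3 mice were pooled into each droplet library, and every time point has 1 library. Differences between time points could therefore not be tested, and intervals cover counting error alone. Tissue was digested on ice, and DAPI served to sort live cells. An additional Smart-seq2 sample of 768 wells mixed all time points.

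Interferons are secreted signals that set neighbouring cells into an antiviral or antimicrobial state. Type I interferons act through the receptor Ifnar1/Ifnar2 and a complex holding Stat2 and Irf9 that binds the interferon-stimulated response element (ISRE), and they induce the Ifit genes, Rsad2 and Isg15. Interferon-gamma acts through Ifngr1/Ifngr2 and the gamma-activated site (GAS), and it is the main inducer of Cxcl9 and of many guanylate-binding proteins, while Cxcl10 answers to both. Macrophages that release Cxcl9 and Cxcl10 draw in T cells that carry Cxcr3.

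The label of macrophage was checked against markers other than those of the gate. At least 5 UMIs of the complement genes C1qa, C1qb and C1qc, which mark tissue macrophages, were found in 21 of 31 interferon-high cells at day 2, 195 of 206 at day 7 and 35 of 38 after reversal, against 0 of 1 in sham. Comparison cells held as many in 157 of 313, 664 of 705 and 196 of 232. At day 7 so did 10 of 50 endothelial and 8 of 24 tubule cells without Tyrobp or Fcer1g UMIs, at median depths of 3038 and 2819 against 7606 UMIs in interferon-high cells, so C1q UMIs alone do not mark a macrophage in that library. At day 2 the same was found in 0 of 86 endothelial and 2 of 297 tubule cells, and after reversal in 0 of 172 and 12 of 514. Among interferon-high cells the share was lowest at day 2 among the 3 later libraries, and 10 cells there held a UMI of the monocyte gene Ly6c2, as did 43 at day 7 and 8 after reversal. A Ly6c2 UMI was also held by 105 of 313, 137 of 705 and 29 of 232 comparison cells. Siglech and Ccr9, which define plasmacytoid dendritic cells, gave 1 and 0 UMIs in all interferon-high cells of the UUO day 2, UUO day 7 and reversed libraries. A share of the interferon-high cells carried endothelial transcripts, as described below. For most gene lists the calls are given with and without those cells. Levels and shares cover all interferon-high cells unless said otherwise.

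The libraries held between 18649637 and 30462683 UMIs, and 146 barcodes occurred in more than 1 library. Of the interferon-high cells, 7 had such a barcode, 6 of them at day 7 and 1 after reversal, and none of those barcodes was an interferon-high cell in another library. Interferon-high cells were deeper than comparison cells. Their median was 11880 UMIs against 9339 at day 2, 7606 against 5660 at day 7 and 7508 against 5836 after reversal.

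The share of interferon-high cells among phagocytes was highest in the day 7 library, and the sham library, with 33 gated cells, was too small to place. They made up 1 of 33 gated phagocytes in sham (3.03%, exact Clopper-Pearson 95% interval 0.0767 to 15.8), 31 of 428 at day 2 (7.24%, 4.97 to 10.1), 206 of 1636 at day 7 (12.6%, 11.0 to 14.3) and 38 of 413 in reversed UUO (9.20%, 6.59 to 12.4). The interval for sham spans all the other shares, and the day 2 and day 7 intervals, which cover counting error within 1 library each, do not overlap. Lower sums, from 1 to 4 UMIs, were found in 18.2% of gated phagocytes in sham, 19.6% at day 2, 44.3% at day 7 and 34.6% after reversal. At day 7, 43.1% of gated phagocytes had a sum of 0, against 73.1% at day 2. Relative to all kept cells, interferon-high cells were 0.0254%, 1.41%, 4.63% and 1.17% in the same order of libraries. With cells under 5 endothelial UMIs, the shares among gated phagocytes were 7.09% at day 2, 11.6% at day 7 and 8.16% after reversal.

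**Figure D1:**
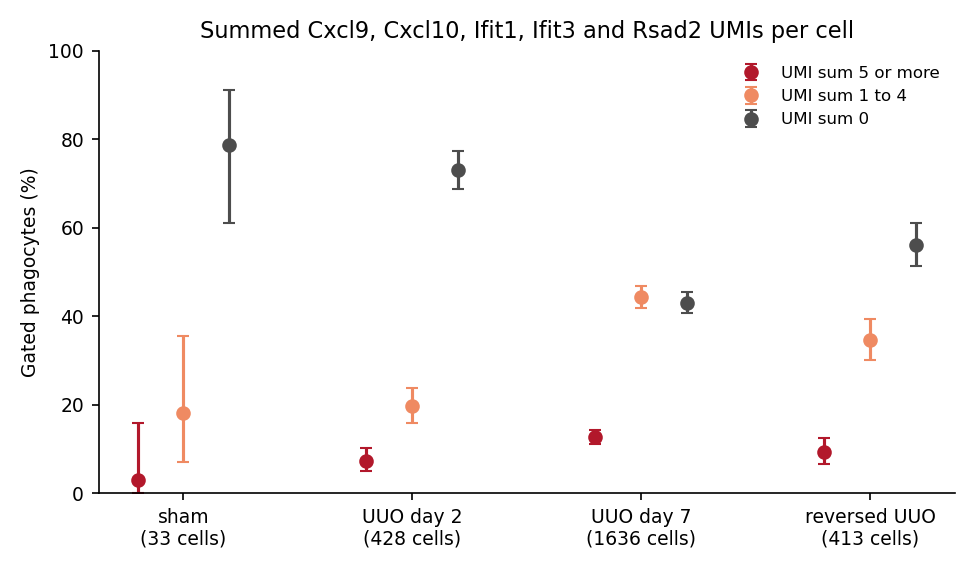
Share of gated phagocytes (percent, vertical axis) with a summed UMI count of 5 or more, 1 to 4 or 0 over the 5 genes, by library, with exact 95% binomial intervals. The share at 5 or more reached 12.6% at day 7, and the share at 0 was lowest there, at 43.1%.

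Shares were also taken at an equal depth. With every gated cell thinned to 2000 UMIs, which left out 6 sham cells, a sum of at least 2 was found in 7.41% of sham phagocytes (2 of 27 cells), 5.14% at day 2, 14.1% at day 7 and 9.20% after reversal. At a sum of at least 5 in the thinned cells the shares were 3.70%, 2.10%, 3.97% and 2.91%, with overlapping intervals. The order day 7, reversed, day 2 was that of the shares before thinning in both cases, while the sham value rests on 2 and 1 cells. With 1 library per time point these orders describe the libraries.

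Over all interferon-high cells, Cxcl10 held the largest part of the 5 genes' UMIs in each library, with 64.2% at day 2, 28.7% at day 7 and 30.8% after reversal. Cxcl9 held 15.9%, 24.0% and 28.5%. Ifit3 held 6.28%, 20.8% and 16.8% and Rsad2 4.81%, 14.8% and 15.03%, whereas Ifit1 was at 8.81%, 11.7% and 8.84%. Without cells carrying at least 5 endothelial UMIs, Cxcl9 was above Cxcl10 after reversal, at 31.85% against 27.9%. Cxcl10 stayed the largest at day 2 (64.5%) and day 7 (30.8%) in that setting. These values chose the cells and are given as a description. Cxcl10, a chemokine for Cxcr3-bearing T cells, was at 1060 CPM (UMIs of the gene per 1000000 UMIs of the class) in interferon-high cells at day 2, 575 at day 7 and 703 in reversed UUO. Its sister chemokine Cxcl9 was at 262, 482 and 650 CPM. Ifit3, which binds foreign RNA together with Ifit1, was at 104, 418 and 383 CPM. Ifit1 itself was at 145, 235 and 202 CPM, and Rsad2, the antiviral enzyme viperin, at 79.3, 296 and 343 CPM. In the 1 sham cell, 14 of the 15 UMIs were Cxcl10.

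Single cells carried much of these sums. The 5 highest interferon-high cells held 51.4% of the rule-gene UMIs at day 2, 18.1% at day 7 and 53.3% after reversal, and the highest cell of each library held 191, 155 and 142 UMIs. Cxcl10 was detected in 90.3% of interferon-high cells at day 2 but in 46.1% at day 7 and 19 of 38 after reversal. Ifit3 was detected in 22.6%, 67.5% and 68.4% of them.

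The 5 genes were also read in cells outside the phagocyte gate. Endothelial cells without Tyrobp or Fcer1g UMIs (243 in sham, 86 at day 2, 50 at day 7 and 172 after reversal, with median depths of 2453, 3626, 3038 and 3548 UMIs) held Cxcl9 in 0.412%, 0%, 0% and 1.74% of cells, where a count of 0 (3 cells of the total) allows up to 3.49% of cells with a UMI at day 2 and 6% at day 7, and Cxcl10 in 1.23%, 1.16%, 4.00% and 2.91%. Rsad2, however, was detected in 57.2%, 44.2%, 66.0% and 70.3% of these endothelial cells, and Ifit3 in 21.0%, 23.3%, 38.0% and 36.0%. The endothelial level of Rsad2 was 569, 249, 554 and 665 CPM in the same order of libraries. In tubule cells it was 13.2, 3.35, 25.5 (from 2 UMIs) and 39.5 CPM, and in interferon-high cells of the last 3 libraries 79.3, 296 and 343 CPM. Proximal tubule cells without Tyrobp or Fcer1g held Rsad2 in 2.01% of 3335 cells in sham and 6.23% of 514 cells after reversal, at median depths of 2768 and 4266 UMIs, and Cxcl10 in 0.450% and 1.75%. At day 2 Cxcl10 was in 8 and Rsad2 in 5 of 297 tubule cells (2.69% and 1.68%), and Ifit3 in 10 (3.37%), at a median depth of 3836 UMIs. At day 7 there were 24 such cells with a median of 2819 UMIs, of which 3 held Cxcl10, 2 Rsad2, 1 Ifit3 and 0 Ifit1, too few to order the genes.

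Detection of the 5 genes varied between cells, within a class chosen by their sum. A cell can reach that sum through 1 gene, and 0 UMIs of a gene do not show that it was absent. Of the 276 interferon-high cells, 133 held UMIs of both a chemokine (Cxcl9 or Cxcl10) and an Ifit-group gene (Ifit1, Ifit3 or Rsad2), 69 held a chemokine alone and 74 an Ifit-group gene alone. All 5 genes were detected together in 10 cells, and 63 cells owed their sum to a single gene. No day 2 cell held the Ifit group without a chemokine, whereas 62 of 206 did at day 7 and 12 of 38 after reversal. Cells with more chemokine than Ifit-group UMIs numbered 28 of 31 at day 2 (90.3%, 74.3 to 98.0), 96 of 206 at day 7 (46.6%, 39.6 to 53.7) and 17 of 38 after reversal (44.7%, 28.6 to 61.7). Without the cells carrying at least 5 endothelial UMIs those shares were 28 of 30, 90 of 180 and 16 of 32 cells.

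**Figure D2:**
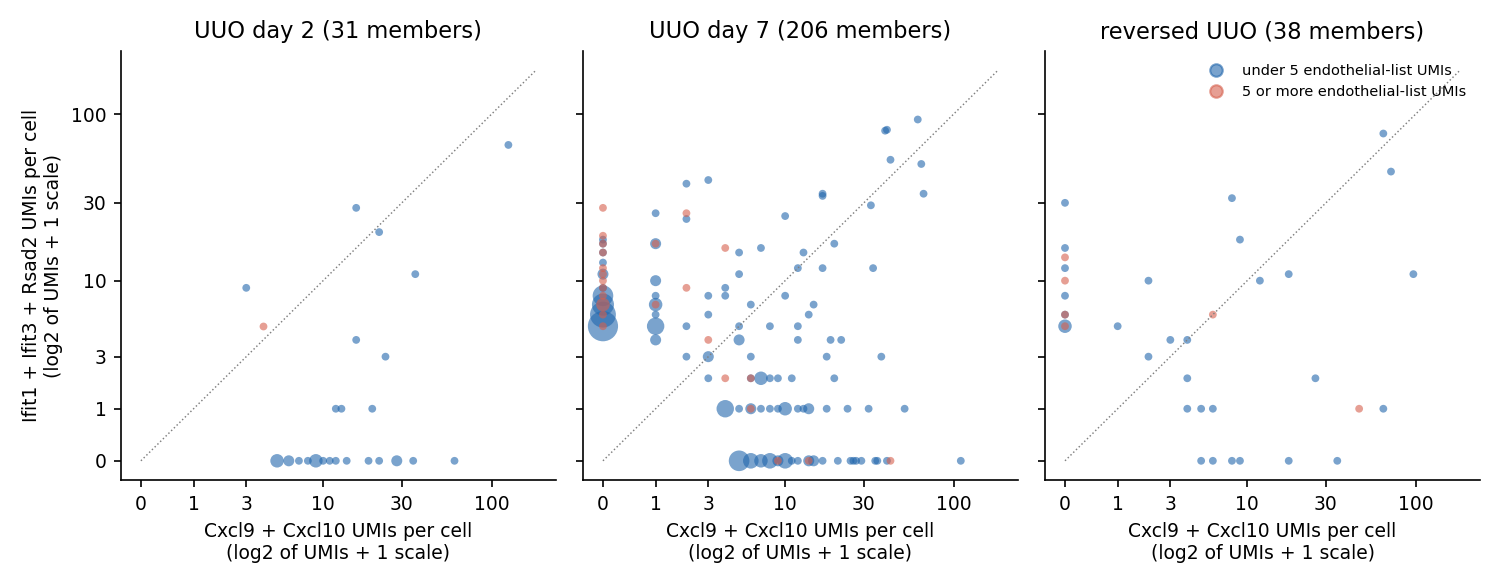
Chemokine UMIs (Cxcl9 and Cxcl10, horizontal axis) against Ifit-group UMIs (Ifit1, Ifit3 and Rsad2, vertical axis) per interferon-high cell on log2(UMIs + 1) scales, in the UUO day 2, UUO day 7 and reversed libraries, with point area showing how many cells share a position and red marking cells with at least 5 endothelial UMIs. At day 2, 28 of 31 cells lie below the dotted line of equal counts, and at day 7 both axes are populated, with 62 cells at 0 chemokine UMIs.

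Cells just inside and just outside the threshold are given as a description. At day 7 a sum of exactly 4 was found in 61 phagocytes and a sum of exactly 5 in 32. Isg15 was at 301 CPM (252 to 357) in the former and 272 CPM (210 to 348) in the latter, between 88.4 CPM in comparison cells and 592 CPM in all interferon-high cells of that library. Gbp2 was at 144 against 153 CPM, whereas Ccl12 was at 1375 CPM (1268 to 1489) against 1812 CPM (1644 to 1992). The Ccl12 intervals do not overlap, but they cover counting error and not the spread between cells. At day 2, with 4 and 3 cells, Isg15 was at 108 against 59.4 CPM, and after reversal, with 9 and 7 cells, at 219 against 194 CPM.

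Genes outside the rule were compared between interferon-high and comparison cells with UMIs summed per library and class, in the UUO day 2, UUO day 7 and reversed libraries (31 against 313, 206 against 705 and 38 against 232 cells). Sham was left out with its 1 cell. Both classes were split by 5 interferon-inducible transcripts in the same cells, so the calls describe what else differed along that split, and an interferon-inducible gene that follows it is not independent evidence of the label. The 12 genes used by the rule and gate were not tested. With edgeR's quasi-likelihood test and the library as a block, 181 of 10006 genes were higher in interferon-high cells (1.81%) and 63 were lower (0.63%), together 2.44%, at an adjusted p under 0.05, and the median log2 fold change over all tested genes was -0.02. The p-values measure the spread between 3 pooled libraries of different time points, not between mice.

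Endothelial transcripts moved with the interferon-high class. At least 5 UMIs of the 10-gene endothelial list, not counting Ly6c1, were found in 1 of 31 interferon-high cells at day 2, 26 of 206 at day 7 and 6 of 38 after reversal, against 2 of 313, 13 of 705 and 4 of 232 comparison cells. The summed list was at 156 against 84.7 CPM at day 2, 721 against 242 CPM at day 7 and 806 against 215 CPM after reversal, with all 10 genes detected in each class. Of the 10 genes 9 rose, for example Plvap, a protein of the diaphragms of small vessels, by 2.03 ± 0.20 (SE) on the log2 scale (adjusted p = 0.00025). In the day 7 cells with such UMIs, Tyrobp and Fcer1g made up a median of 0.166% of UMIs, against 0.574% in the other day 7 interferon-high cells. With cells under 5 endothelial UMIs in both classes, 225 of 9576 genes were higher (2.35%) and 67 lower (0.7%), together 3.05%, no endothelial gene passed, and 130 of the higher and 39 of the lower genes were called in both fits. This alternative was chosen after seeing the data, and its counts stand beside the lists below as those without cells carrying endothelial UMIs. It limits UMIs of the endothelial list itself, so lower values of those genes followed by construction.

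**Figure D3:**
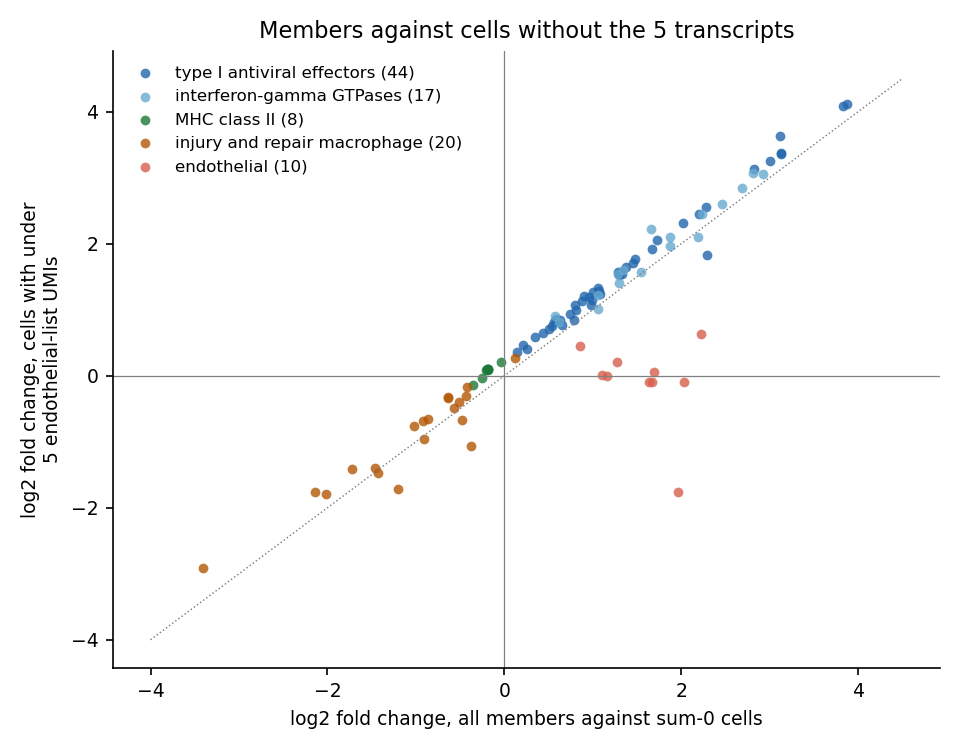
Log2 fold change of interferon-high against comparison cells with all cells (horizontal axis) and with cells under 5 endothelial UMIs (vertical axis), 1 point per tested gene, coloured by list. Flt1, the highest endothelial gene, goes from 2.22 to 0.63 and Plvap from 2.03 to -0.09, while antiviral effectors lie above the dotted line of equality except Ifi44, at 2.30 and 1.82. The endothelial drop is by construction, since UMIs of that list set the limit.

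Interferon genes themselves gave few UMIs in these cells. Of 10 ligands none had enough UMIs to be tested. Ifnb1 gave 1 UMI at day 7 and none in the other interferon-high cells of the tested libraries. Ifng gave 7 UMIs in interferon-high and 4 in comparison cells at day 7, with 0 against 2 at day 2 and 0 against 4 after reversal.

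Of 7 receptor and kinase genes, 0 rose and 1 fell. Ifngr1, the ligand-binding chain of the interferon-gamma receptor, was at 203 against 349 CPM at day 2, 247 against 373 at day 7 and 275 against 392 after reversal. It was lower in interferon-high cells in each library, by -0.68 ± 0.12 on the log2 scale (adjusted p = 0.012). Without cells of at least 5 endothelial UMIs its adjusted p was 0.051. Ifnar1, a chain of the type I receptor, was at 66.1 against 52.5, 91.0 against 102 and 50.4 against 88.4 CPM and did not pass (adjusted p = 0.75).

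Transcription factors of the pathway rose in part, 6 of 15 genes with none lower (8 of 15 without cells carrying endothelial UMIs). Irf7, which amplifies type I interferon responses, was at 256 against 34.9 CPM at day 2, 408 against 142 at day 7 and 320 against 74.8 after reversal. Its log2 fold change was 2.03 ± 0.21 (adjusted p = 0.00025). Batf2, Stat2, Irf1 and Ifi35 also rose, with log2 fold changes of 2.20, 0.98, 0.87 and 0.84. Irf9, the DNA-binding partner of Stat2, was at 39.6 against 46.7, 53.1 against 60.4 and 50.4 against 60.6 CPM and did not pass (adjusted p = 0.61).

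Sensors of foreign nucleic acid rose in 7 of 14 genes, with none lower and the same count without cells carrying endothelial UMIs. Among them were the RNA helicases Ddx58 (RIG-I), Ifih1 (MDA5) and Dhx58, with log2 fold changes of 1.10, 1.24 and 1.08, and Zbp1, a sensor of left-handed nucleic acid, with 1.42. The DNA-binding Ifi204 was at 300 against 94.6 CPM at day 2, 449 against 171 at day 7 and 413 against 124 after reversal. Ifi205, also a marker of conventional dendritic cells, was at 172 against 11.1, 67.7 against 7.33 and 47.9 against 15.5 CPM, a log2 fold change of 3.09 ± 0.33 (adjusted p = 0.00031).

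Most antiviral effectors rose. Of 44 tested genes 30 rose and none fell, with a median log2 fold change of 1.07, and 39 rose without cells carrying endothelial UMIs. Isg15, a ubiquitin-like modifier, was at 313 CPM in interferon-high and 35.9 in comparison cells at day 2, 592 and 88.4 at day 7, and 469 and 65.5 after reversal. Every interferon-high value exceeded every comparison value, and the log2 fold change was 2.83 ± 0.14 (adjusted p = 1.4e-06). Ifit2, a relative of the rule genes, was at 83.7 against 3.40, 204 against 16.2 and 176 against 12.4 CPM, a log2 fold change of 3.83 ± 0.20 (adjusted p = 1.4e-06). Mx1, a gene of an antiviral GTPase family, was at 41.9 against 2.16, 67.1 against 10.9 and 52.9 against 6.18 CPM, a log2 fold change of 3.01 ± 0.29 (adjusted p = 0.00024).

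Further effectors spanned a wide range. Cmpk2, a mitochondrial nucleotide kinase and genomic neighbour of Rsad2, changed by 3.13 on the log2 scale, Oasl1 by 3.12, Ifi44 by 2.30, Isg20 by 2.28 and the tetherin gene Bst2 by 0.65. The PYHIN family genes Mnda, Pyhin1, Ifi203 and Pydc4 rose by 2.02, 1.38, 1.33 and 1.67. Ifit3b rose by 3.88, but its sequence is close to that of the rule gene Ifit3, so reads between the copies are uncertain, as they are for Oas1a and Oas1g and within the Slfn group. Apobec3, Sp100 and Slfn2 were among the 14 that did not pass, with log2 fold changes of 0.63, 0.54 and 0.35.

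Interferon-gamma-inducible GTPases, which attack vacuoles of intracellular microbes, rose in 11 of 17 genes and fell in none, with a median log2 fold change of 1.66, and 12 rose without cells carrying endothelial UMIs. Gbp2 was at 275 against 15.8 CPM at day 2, 263 against 50.8 at day 7 and 272 against 51.3 after reversal, so its level in interferon-high cells was about the same in each library while comparison cells were lowest at day 2. Its log2 fold change was 2.82 ± 0.27 (adjusted p = 0.00024). Iigp1 was at 26.4 against 3.40 CPM at day 2, 196 against 35.5 at day 7 and 169 against 18.55 after reversal, a log2 fold change of 2.69 ± 0.19 (adjusted p = 1.5e-05). Gbp5 changed by 2.92, Tgtp2 by 2.24, Ifi47 by 1.88 and Irgm1 by 1.35. Copies within the Gbp and Tgtp groups are close in sequence, so their separate values are uncertain.

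Promoter letters of these genes were read to set beside the values. The 60-base stretches below come from RefSeq promoters of build GRCm38.p6, each spanning 250 bases before to 50 after a gene's start, and show genes of the rule and called genes of different roles. Capitals mark the ISRE letters, GAAA and GAAA parted by 2 bases of any kind, on either strand, which merge where matches overlap, and in Irf1 the GAS letters TTCNNNGAA. Irf1 has 2 promoters in the table, of which the other holds neither motif.

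Cxcl10, chr5:92349068-92349127, minus strand: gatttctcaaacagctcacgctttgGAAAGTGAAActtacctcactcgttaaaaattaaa

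Ifit1, chr19:34640769-34640828, plus strand: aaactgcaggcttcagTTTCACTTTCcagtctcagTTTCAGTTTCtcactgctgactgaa

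Ifit3, chr19:34583365-34583424, plus strand: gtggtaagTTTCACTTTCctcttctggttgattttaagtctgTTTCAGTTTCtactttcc

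Rsad2, chr12:26456538-26456597, minus strand: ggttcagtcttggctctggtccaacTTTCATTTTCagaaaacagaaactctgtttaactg

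Isg15, chr4:156200856-156200915, minus strand: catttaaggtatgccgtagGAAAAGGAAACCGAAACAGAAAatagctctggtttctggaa

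Gbp2, chr3:142620579-142620638, plus strand: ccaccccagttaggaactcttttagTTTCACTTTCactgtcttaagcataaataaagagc

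Socs1, chr16:10785582-10785641, minus strand: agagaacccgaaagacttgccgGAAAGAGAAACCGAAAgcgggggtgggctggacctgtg

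Irf1, chr11:53769898-53769957, plus strand: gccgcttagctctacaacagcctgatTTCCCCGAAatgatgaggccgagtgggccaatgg

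In Cxcl10 the letters lay 213 to 204 bases before the start, in Rsad2 120 to 111 and in Gbp2 59 to 50. Ifit1, Ifit3 and Socs1 each held 2 matches and Isg15 held 3 overlapping ones. Cxcl9 held neither motif in this window, which says nothing of the factors that bind it. Of genes higher in interferon-high cells, 130 of 181 had a promoter in the table, and 33 of these held ISRE letters (25.4%), against 2 of 43 genes that were lower (4.65%) and 4.13% of tested genes. Among 46 called interferon-list genes with a promoter, 24 did (52.2%). ISRE letters were in 3.44% of all promoters of this length and GAS letters in 8.30%. GAS letters were in 18 of 130 higher genes (13.8%) and 5 of 43 lower genes (11.6%), against 8.35% of tested genes.

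Genes of MHC class I presentation rose in part, and none of class II passed. For MHC class I, 4 of 18 genes rose, against 1.81% of all tested genes, and none fell, with a median log2 fold change of 0.42 against -0.0195 over all tested genes. Without cells carrying endothelial UMIs 9 of 18 rose, against 2.35% of tested genes. The 4 were the proteasome genes Psme2 and Psmb10, higher by 0.77 and 0.58, the peptide transporter gene Tap1 by 0.75 and H2-T22 by 0.68. The chains H2-K1 and B2m were at 1521 against 1179 and 6013 against 4833 CPM at day 7 and did not pass (adjusted p = 0.57 and 0.65), though B2m did without those cells (0.37, adjusted p = 0.043). None of 8 MHC class II genes passed. H2-Aa was at 2088 against 2539 CPM at day 2, 10550 against 9747 at day 7 and 8496 against 9662 after reversal, so it differed more between day 2 and the later libraries than between the classes.

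Negative regulators and checkpoint genes rose in 6 of 10, with none lower, and in 8 of 10 without cells carrying endothelial UMIs. Isg15 was 1 of the 6, being on this list as well. Socs1, which blocks Jak kinases, was at 30.8 against 4.02 CPM at day 2, 27.4 against 5.55 at day 7 and 32.8 against 3.71 after reversal, a log2 fold change of 2.63 ± 0.35 (adjusted p = 0.0016). Usp18, which removes Isg15 and dampens the type I receptor, changed by 2.50. Cd274, the checkpoint ligand PD-L1, changed by 1.58 and Il18bp, a decoy for Il18, by 1.48. The activation marker Cd69 was at 110 against 5.56 CPM at day 2 and 56.6 against 12.4 at day 7, but 12.6 against 12.98 after reversal.

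Genes that stimulate T cells or cell death rose in 3 of 17 (6 of 17 without cells carrying endothelial UMIs). Cd40, the receptor for T cell help, was at 74.9 against 12.7 CPM at day 2, 75.3 against 23.8 at day 7 and 63.0 against 24.7 after reversal, a log2 fold change of 1.78 ± 0.23 (adjusted p = 0.0014). The prothrombinase and immune regulator Fgl2 rose by 1.11. The death ligand Tnfsf10 (TRAIL) rose by 2.04, with an adjusted p of 0.027 that became 0.15 without cells carrying endothelial UMIs.

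Other chemokines split in direction, with 3 of 20 higher and 3 lower. Those that rose were monocyte attractants for Ccr2: Ccl12, Ccl7 and Ccl2, by 1.49, 1.28 and 1.26 on the log2 scale. Ccl12 was at 1064 against 337 CPM at day 2, 1672 against 614 at day 7 and 1021 against 344 after reversal (adjusted p = 2.1e-05). Ccl2 was at 1511 against 678, 460 against 207 and 572 against 174 CPM (adjusted p = 0.00024). Ccl6 fell by 0.90, and the Cxcr2 ligands Cxcl3 and Ppbp fell by 3.32 and 3.04. Without cells carrying endothelial UMIs, 6 were higher, Ccl4, Ccl5 and Cxcl16 among them, and 2 lower. The receptor Ccr2 fell by 0.61, as 1 of 6 chemokine receptor genes, with an adjusted p of 0.017 that became 0.24 without those cells.

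None of 12 inflammatory cytokine genes passed in either fit. Tnf was at 85.9 against 38.3 CPM at day 2, 26.8 against 25.8 at day 7 and 40.3 against 59.4 after reversal. Il1b was at 630 against 516, 392 against 517 and 340 against 659 CPM. Both were lower in interferon-high than in comparison cells after reversal and higher at day 2.

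**Figure D4:**
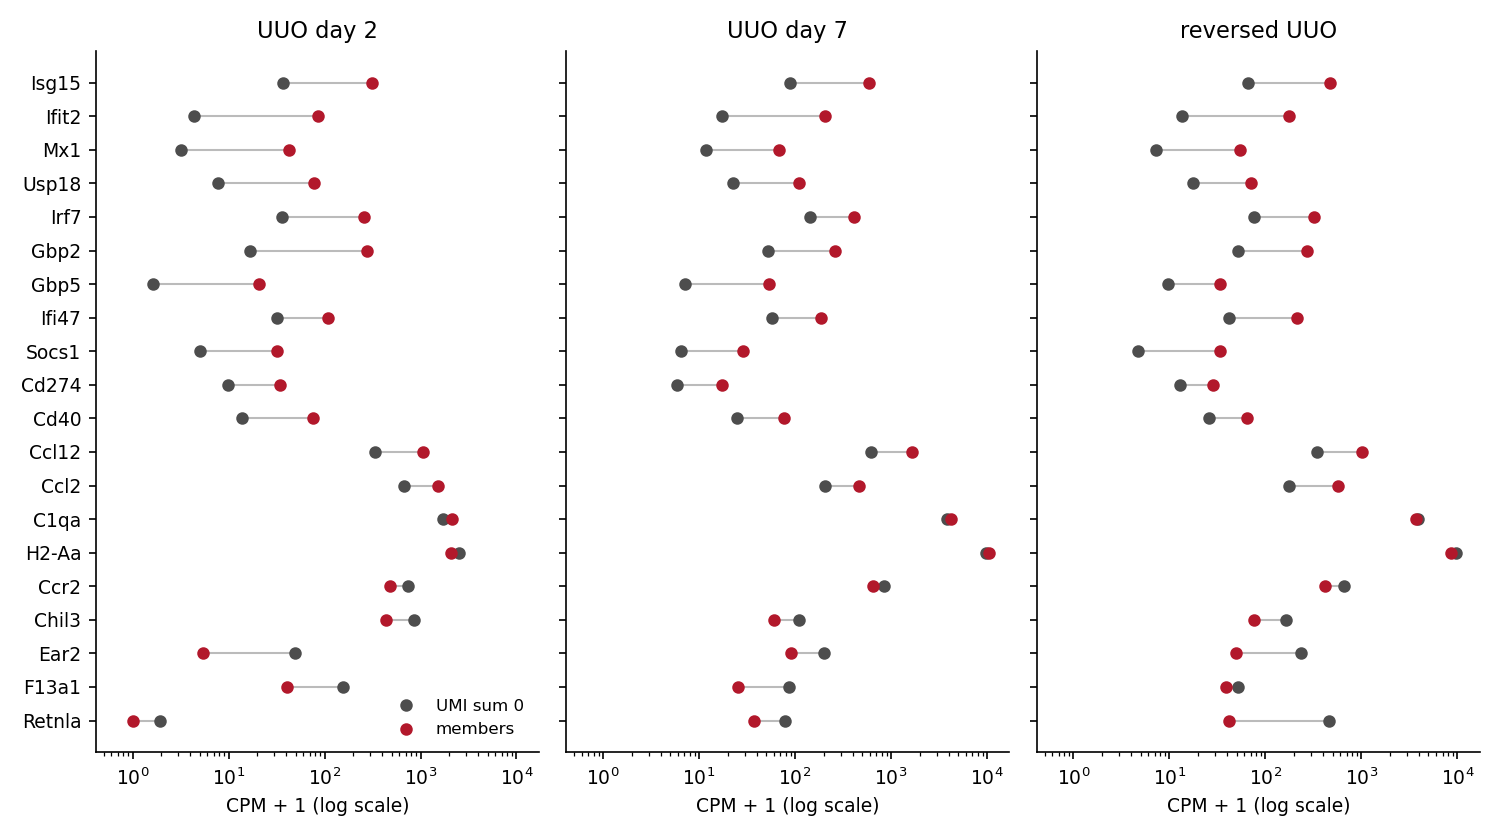
Level (CPM + 1, log scale) of 20 genes in interferon-high cells (red, labelled members) and comparison cells (grey, UMI sum 0) in the UUO day 2, UUO day 7 and reversed libraries. Isg15 to Ccl2 lie to the right in interferon-high cells in each library, C1qa and H2-Aa nearly coincide, and Chil3 lies to the left, for example at 60.1 against 109 CPM at day 7.

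Genes of injury and repair macrophages were lower, 8 of 20 with none higher, also without cells carrying endothelial UMIs, where Spp1 and Fn1 were among the 8 and Cd9 and Ctsd were not. Chil3, a chitinase-like protein of alternatively activated macrophages and monocytes, was at 432 against 856 CPM at day 2, 60.1 against 109 at day 7 and 75.6 against 161 after reversal. Its log2 fold change was -1.02 ± 0.14 (adjusted p = 0.0018). Gpnmb, a membrane protein of lipid-laden macrophages, changed by -3.40, though its UMIs came mostly from comparison cells after reversal (73.0 CPM, against 2.52). Retnla, Ear2, Thbs1, Ctsd and Cd9 changed by -2.14, -1.72, -1.20, -0.87 and -0.57. With a rule sum of at least 10, Retnla and Thbs1 no longer passed. The osteopontin gene Spp1 was at 4816 against 5144, 6069 against 7023 and 975 against 1537 CPM and did not pass with all cells (adjusted p = 0.20).

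Monocyte genes were lower in 4 of 8: F13a1 by 1.60, Hp by 1.20, Chil3 by 1.02 and Ccr2 by 0.61. F13a1, a coagulation factor subunit of classical monocytes, was at 39.6 against 153 CPM at day 2, 24.5 against 86.6 at day 7 and 37.8 against 51.3 after reversal (adjusted p = 0.0027). Without cells carrying endothelial UMIs, 2 of the 8 were lower, Chil3 and F13a1. Of 15 tissue macrophage genes, Apoe fell by 0.44 and Stab1 by 0.62 and none rose. C1qa was at 2152 against 1698, 4209 against 3861 and 3700 against 3855 CPM. Without those cells neither Apoe nor Stab1 passed, and Cd72 was higher by 0.54.

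Cell cycle genes rose in 6 of 16 with none lower, and in 8 of 16 without cells carrying endothelial UMIs. Birc5, an inhibitor of apoptosis expressed in mitosis, was at 242 against 85.6 CPM at day 2, 55.4 against 32.9 at day 7 and 45.4 against 25.4 after reversal, a log2 fold change of 1.05 ± 0.19 (adjusted p = 0.011). The summed list was at 4818 against 2598 CPM at day 2, 1627 against 1143 at day 7 and 1550 against 981 after reversal. With cells of 3000 to 15000 UMIs in both classes none of the 6 passed, Birc5 being at 0.40 on the log2 scale (adjusted p = 0.69). That window also left fewer cells, 20 of 31 interferon-high and 251 of 313 comparison cells at day 2, so depth and the loss of the deepest cells cannot be told apart. Over all genes the window called more genes higher, 324 against 181. None of 16 genes of the dissociation response passed.

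Markers of other cell types were examined in the same fit. Of 9 T and NK cell genes, 7 neutrophil genes and 3 B cell genes none passed, with median log2 fold changes of -0.51, -1.01 and -0.11. Without cells carrying endothelial UMIs 1 of 6 neutrophil genes was lower, Lcn2, at -1.75 (adjusted p = 0.012), a gene that injured tubule cells also express. Of 10 conventional dendritic genes Ifi205 passed, and of 5 plasmacytoid genes Bst2, both also interferon-inducible. At least 3 conventional dendritic UMIs were found in 12.9%, 14.6% and 13.2% of interferon-high cells of the UUO day 2, UUO day 7 and reversed libraries, against 9.90%, 7.38% and 7.33% of comparison cells. Of 5 stromal genes Col1a1 and Col3a1 were lower in interferon-high cells, with log2 fold changes of -2.005 and -2.26 and a list median of -1.33, mostly through day 7, where Col3a1 was at 64.8 against 351 CPM. After reversal Col3a1 was at 10.1 against 10.5 CPM. Without cells carrying endothelial UMIs 3 of 5 were lower (median -2.12), namely Col1a1, Col1a2 and Col3a1, at -2.62, -2.12 and -2.66. With under 5 endothelial UMIs and Tyrobp and Fcer1g at 0.1% of UMIs or more, Col1a1 turned to 0.55 and Col3a1 to 0.0992. Of 12 proximal tubule genes 2 were lower (median -0.59), Kap among them at -0.65, and none of 12 was called without cells carrying endothelial UMIs, where Kap was at -0.49 (adjusted p = 0.061). Of 12 distal and injured tubule genes none was called, and without those cells Krt8 was lower, 1 of 11 tested. The part of these transcripts in the other results was not tested.

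Among genes higher in each of the 3 libraries and at 20 CPM or more, the 12 largest increases were Ifit3b, Ifit2, Cmpk2, Oasl1, Ifi205, Mx1, Dnase1l3, Gbp5, Isg15, Gbp2, Procr and Iigp1. All but Dnase1l3 and Procr came from the interferon lists. Dnase1l3, a nuclease that digests DNA in vesicles, was at 15.4 against 0 CPM at day 2, 59.5 against 11.8 at day 7 and 68.0 against 4.33 after reversal (adjusted p = 0.0025). Procr, the protein C receptor, was at 17.6 against 2.16, 20.4 against 2.44 and 27.7 against 4.95 CPM (adjusted p = 0.0034). Among the 12 largest decreases, lower in each library and also at 20 CPM or more, genes on no list were Sfrp1, Tmem52b, Ifitm6, Rasgrp2 and Slpi. The call of Sfrp1 was lost without cells carrying endothelial UMIs (log2 fold change -1.23, adjusted p = 0.057), and its value turned to 0.34 with Tyrobp and Fcer1g also at 0.1% of UMIs or more. Slpi, a protease inhibitor, was at 24.2 against 52.9, 21.0 against 50.8 and 10.1 against 40.2 CPM (adjusted p = 0.006). Ifitm6 was at 50.7 against 177, 22.8 against 60.4 and 35.3 against 62.4 CPM, a log2 fold change of -1.46 ± 0.20 (adjusted p = 0.0016).

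The calls depended on the day 7 library and on pairing. Without day 7, 49 genes were higher and 12 lower. Without day 2 the counts were 158 and 37, and without reversed UUO 298 and 143. Without the library block edgeR called 0 in either direction, with 373 genes at an unadjusted p under 0.05, and DESeq2 with the block called 121 higher (1.21%) and 28 lower (0.28%). Among cells with at least 5 C1q UMIs, 98 were higher and 21 lower, and Ccl7, Cd69, Cd274, Tnfsf10, Chil3 and Retnla were among those that no longer passed.

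The pattern of co-detection was followed into genes outside the rule. At day 7, interferon-high cells with a chemokine but no Ifit-group UMI (43 cells) had Isg15 at 102 CPM (exact Poisson 95% interval 72.9 to 138), near the 88.4 of comparison cells (79.9 to 97.5), whereas cells with the Ifit group alone (62 cells) had 540 (475 to 610) and cells with both (101 cells) had 857 (795 to 922). Irf7 was at 144 CPM with a chemokine alone, 427 with the Ifit group alone, 524 with both and 142 in comparison cells. Gbp2 ran differently, at 386 CPM with a chemokine alone, 170 with the Ifit group alone, 256 with both and 50.8 in comparison cells. Ccl12 was at 1099, 1075, 2282 and 614 CPM in the same order. The endothelial gene Plvap was at 29.7 CPM with a chemokine alone, 265.5 with the Ifit group alone, 79.8 with both and 30.6 in comparison cells. Cells with at least 5 endothelial UMIs were included, and the part of endothelial transcripts in the other values was not tested. These groups were formed by UMIs of the rule, and the values are a description of 1 library.

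At day 2 no cell held the Ifit group alone. The 20 cells with a chemokine alone had Isg15 at 58.7 CPM and Irf7 at 35.2, against 35.9 and 34.9 in comparison cells, while the 11 cells with both kinds had 1076 and 917. Gbp2 was at 179, 564 and 15.8 CPM in chemokine-alone, both-kind and comparison cells, so both-kind cells were above chemokine-alone cells there, the opposite order to day 7. The day 2 values rest on few cells, with Gbp2 UMIs in 6 of 20 chemokine-alone and 7 of 11 both-kind cells. After reversal Isg15 was at 144 CPM (62.3 to 284, from 8 UMIs) in the 6 chemokine-alone cells, 274 (193 to 378) in the 12 Ifit-alone cells, 683 (575 to 806) in the 20 cells with both kinds and 65.5 (53.7 to 79.3) in comparison cells. The interval of chemokine-alone cells overlapped those of Ifit-alone and of comparison cells there, so chemokine-alone cells could not be told from either at this depth. The interval of Ifit-alone cells lay above that of comparison cells. These intervals cover counting error and not the spread between cells. Gbp2 was at 596 CPM (410.0 to 836), 96.3 (51.3 to 165), 300.4 (230.3 to 385) and 51.3 (40.9 to 63.6) in the same order. The endothelial gene Plvap was at 18.05, 459, 33.9 and 28.4 CPM in that order after reversal. At day 2 it was at 2.94, 70.55 (all from 1 cell) and 8.35 CPM in chemokine-alone, both-kind and comparison cells. The part of endothelial transcripts in the other values was not tested.

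**Figure D5:**
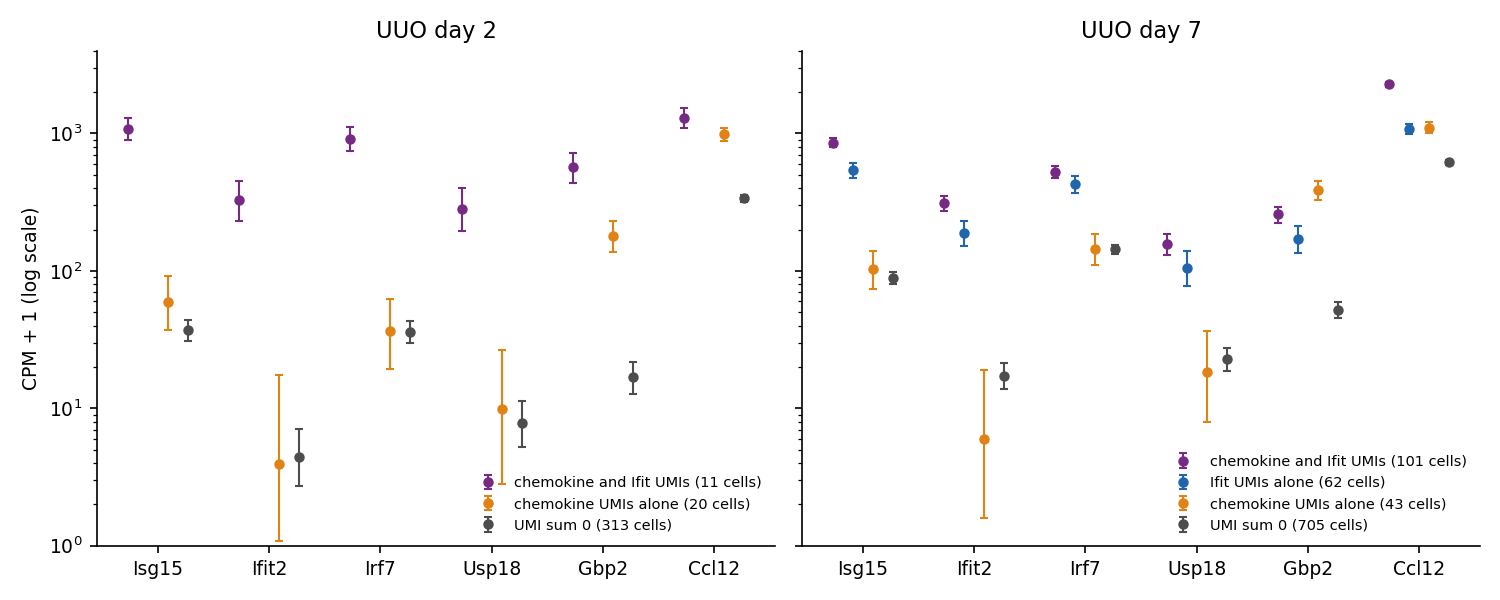
Level (CPM + 1, log scale) of 6 genes at UUO day 2 and UUO day 7 in interferon-high cells with UMIs of both kinds, of the Ifit group alone or of a chemokine alone, and in comparison cells, with exact 95% Poisson intervals. In chemokine-alone cells Isg15 and Irf7 lie near comparison cells (102 and 144 against 88.4 and 142 CPM at day 7) while Gbp2 lies above them (386 against 50.8 CPM).

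Cells led by chemokine UMIs were then tested against cells led by Ifit-group UMIs, in the day 7 (96 against 106) and reversed (17 against 19) libraries. With edgeR's quasi-likelihood test and a library block, 40 of 6139 genes were higher in chemokine-led cells (0.652%) and 105 were lower (1.71%), together 2.36%. The fit rests on 2 libraries, and DESeq2 called 0 in either direction, with 93 genes at an unadjusted p under 0.05. In edgeR, 28 were higher and 39 lower without doublet-scored cells. The counts were 6 and 33 with C1q of at least 5 UMIs, and 2 and 32 without the block. With cells under 5 endothelial UMIs, 42 of 4758 were higher (0.883%) and 60 lower (1.26%). When cells with at least 3 conventional dendritic UMIs were left out too, edgeR called 0 of 4412 in either direction (289 unadjusted), so the calls below end under that alternative, which was chosen after seeing the data. At least 3 such UMIs were found in 19 of 96 chemokine-led against 11 of 106 Ifit-led cells at day 7. After reversal they were found in 3 of 17 against 1 of 19.

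Higher in chemokine-led cells were 6 of 15 other chemokines. Ccl5, a chemokine for T cells and monocytes, was at 758 against 178 CPM at day 7 and 190 against 52.0 after reversal, a log2 fold change of 2.06 ± 0.33 (adjusted p = 1.8e-07). Ccl3, Cxcl2 and Ccl4 changed by 1.55, 1.33 and 1.03. Ccl2 changed by 1.11 over both libraries, but was at 393 against 533 CPM at day 7 and 1242 against 151 after reversal, and Ccl17 was at 202 against 26.1 and 6.54 against 20.8 CPM. Il1b was higher by 1.35, Nfkbia, the inhibitor of NF-kappaB, by 1.08 and Socs3 by 1.23. Of 16 GTPases 2 were higher and none lower, while the list median was -0.30. Gbp2 was at 354 against 174 and 516 against 146 CPM, and Gbp2b rested on 21 against 2 UMIs and 3 against 0 UMIs. Without cells carrying endothelial UMIs Gbp2 was higher, by 1.29, and Ifi47 lower, at -0.95 (adjusted p = 0.030), 1 each of 14 tested, the median was -0.25 and Gbp2b was not tested. Apol7c, an apolipoprotein L family gene outside the lists, was at 55.1 against 7.12 CPM and 78.5 against 0 CPM, with 6 and 0 UMIs in the Ifit-led cells (adjusted p = 2.6e-06). Other genes outside the lists were Rarres2, which encodes chemerin, Adam8, a metalloprotease, and Ankrd1, higher by 2.89, 2.41 and 2.41. They rested on few UMIs, with 17 against 2 and 5 against 1 for Rarres2, 22 against 2 and 12 against 5 for Adam8, and 27 against 9 and 13 against 0 for Ankrd1, and were not tested without cells carrying endothelial UMIs.

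Higher in Ifit-led cells were 11 of 44 antiviral effectors, and 24 of 44 without cells carrying endothelial UMIs. Ifit2 was at 324 against 80.2 CPM at day 7 and 276 against 98.1 after reversal, and Ifi44 at 139 against 17.96 and 120 against 6.54 CPM. The others were Ifit3b, Ifit1bl1, Oas3, Oasl1, Trim30a, Herc6, Ifi203, Slfn5 and Slfn8. These classes were formed by UMIs of the rule genes, so effectors that go with the Ifit group, Ifit2 and the near-copy Ifit3b among them, are not independent of that split. Of 6 monocyte genes 4 were higher in Ifit-led cells: Chil3, Hp, Plac8 and Ly6c2, by 2.35, 2.14, 1.99 and 1.42. Plac8 was at 523 against 481 CPM at day 7 and 1727 against 32.7 after reversal, so most of its difference came from the reversed library. A Ly6c2 UMI was found in 23 of 106 Ifit-led against 19 of 96 chemokine-led cells at day 7, and in 6 of 19 against 1 of 17 after reversal. None of 17 MHC class I, 7 class II or 13 tissue macrophage genes passed.

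Tubule markers also differed between the led classes. Of 12 proximal tubule genes 2 were higher in chemokine-led cells (3 of 9 without cells carrying endothelial UMIs), among them Acsm2, an enzyme of fatty acid activation, by 2.10 (2.52 without those cells). Of 9 distal and injured tubule genes 3 were higher in Ifit-led cells, namely Slc12a1, Krt8 and Havcr1, by 3.64, 2.43 and 1.71. Without cells carrying endothelial UMIs, 1 of 5 tested was higher in Ifit-led cells. Of 4 genes tested from the plasmacytoid list Klk1, which kidney tubules also express, and Tcf4 were higher in Ifit-led cells, by 1.89 and 1.24, while the defining genes Siglech and Ccr9 gave 1 and 0 UMIs in all interferon-high cells of the 3 UUO libraries. The part of these transcripts in the other differences was not tested.

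Endothelial genes were 9 of 10 higher in Ifit-led cells, and at least 5 endothelial UMIs were found in 20 of 106 Ifit-led against 6 of 96 chemokine-led cells at day 7, and in 4 of 19 against 1 of 17 after reversal. The summed list was at 1226 against 237 CPM and 1457 against 222 CPM. Without those cells 5 of the 10 genes had enough UMIs to be tested and none of the 5 passed, while Cdh5, Pecam1, Kdr, Flt1 and Esam were not tested. Fewer endothelial UMIs remained in that setting by construction. The largest decreases in chemokine-led cells outside the lists were Robo4, Aplnr, Ushbp1, Myct1, Ehd2, Mmrn2 and Ptprb, several of them known from endothelium, with log2 fold changes from -4.61 for Aplnr to -3.96 for Ptprb, apart from Robo4, which had 0 UMIs in chemokine-led cells against 19 and 5 in Ifit-led cells. Ptprb was at 3.59 against 120 CPM at day 7 and 19.6 against 72.8 after reversal, and none of the 7 was tested without those cells. Mgp, a matrix protein, was at 853 against 121 CPM at day 7 and 144 against 93.6 after reversal in chemokine-led against Ifit-led cells, and its log2 fold change of 2.12 became 0.22 without those cells.

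The Smart-seq2 wells gave values in cells the droplet rule did not use. Of 768 wells, 338 passed the same kind of phagocyte gate on read counts, and 109 of them reached 50 CPM summed over the 5 rule genes while 171 were at 0. Median depths were 10020 reads in the former and 13190 in the latter, and at such a depth a single read exceeds 50 CPM, so a well could enter the former class on 1 read. The wells were 1 sample of mixed time points, so no test was run. Both classes of wells were split by the same 5 genes. An interferon-inducible gene that follows this split is therefore not independent evidence of the label here either. Mean levels were higher in the former wells for 37 of 45 detected antiviral effectors (median log2 ratio 0.69) and 12 of 16 GTPases (0.67), against 5636 of 11210 genes at 5 CPM or more (0.01). Gbp2 averaged 68.5 against 21.5 CPM, Mx1 145 against 18.8 and Irf7 308 against 148, while Isg15 was low in both at 10.8 against 1.52 CPM, and Iigp1 at 50.4 against 58.2 did not go that way. By mean level, several genes higher in droplet interferon-high cells did not go that way in the wells either. Of 11 detected feedback and checkpoint genes 5 were higher (median log2 ratio -0.12), with Cd274 at 15.5 against 46.0 CPM and Il18bp at 9.71 against 21.7. Cd274 had reads in 13 of 109 against 35 of 171 wells, but Il18bp in 9 of 109 against 5 of 171. Of 20 other chemokines 8 were higher (-0.12), Ccl2 being at 524 against 836 CPM, while Ccl7 was at 426 against 220 and Ccl12 at 480 against 323. The median of Ccl2 ran opposite to its mean, at 216 against 46.4 CPM. Dnase1l3 was at 101.9 against 101.1 CPM, with reads in 43 of 109 against 37 of 171 wells. Procr had reads in 0 of 109 against 3 of 171 wells. Of 16 cell cycle genes 7 were higher (-0.21), whereas of 18 MHC class I genes 16 were (0.33). Ifit2 had reads in 27 of 109 wells and is listed at 0 in the other 171. Of 20 injury and repair genes 9 were higher. Endothelial genes were higher for 7 of 10, with a median log2 ratio of 1.95, and conventional dendritic genes for 6 of 11, with 1.08, while stromal genes were higher for 0 of 7, with -1.82. Their part in these values was not tested.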

How the data were processed

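Interferon-high phagocytes were compared with phagocytes of the same droplet library lacking the 5 transcripts. For each of 4 droplet libraries the authors deposited a matrix of unnormalised UMI counts (10x 3' v2 per the labels' protocols) and raw read counts per gene and well for the Smart-seq2 sample, whose preparation is not given in the sources used here. Cell Ranger, STAR and the builds GRCm38 and mm10 are named in the submitters' processing notes, without versions or roles. The members and gene lists were chosen with earlier results of these data known. Genes on no list are named if they are among the 12 largest changes in each direction (8 between chemokine-led and Ifit-led cells) that passed, had 1 sign in every library and at least 20 CPM.

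For each class within a library the counts were added up and tested with edgeR 4.0.16 (R 4.3.3; TMM factors, filterByExpr, glmQLFit and glmQLFTest, Benjamini-Hochberg over all tested genes), with the library as a block because both classes come from the same pool of 3 mice, a pairing given by the design. DESeq2 1.42.0 was an alternative. Both fits were tested on simulated data: of changes of 1 and 2 on the log2 scale, 52.6% and 90% were recovered among 9717 genes for interferon-high against comparison cells, with 3 false calls, and 14.9% and 81.8% among 5453 genes for chemokine-led against Ifit-led cells, with 1 false call. Log2 ratios per library add 1 CPM to both values, so that changes of genes with low levels are understated. Doublets were kept; Scrublet scores (scanpy 1.11.5), taken at 0.8% per 1000 cells because its own threshold marked 45, 1, 3 and 3 cells, served an alternative and marked 16 interferon-high cells. Tables and figures were made with pandas 2.3.3, matplotlib 3.10.9, scipy 1.17.1 and numpy 2.4.6 under Python 3.11.15. The alternatives that limit endothelial or dendritic UMIs were added after seeing the data. Genes without an entry in the promoter table were left out of the motif counts. Some genes are not reported here.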

Additional observations from a re-analysis of the deposited data

Results flagged for a closer look

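Several genes differed in direction between libraries, and these differences were not tested. Each value is the log2 ratio of CPM with a pseudocount of 1 CPM, interferon-high against comparison cells unless said otherwise. Every pair named had intervals that exclude 0 on opposite sides, and ratios of at least 1 and at most -1. These intervals cover counting error of the summed UMIs and not the spread between cells. An interval can therefore exclude 0 through 1 cell. For Ccl17 at day 2 it ran from 0.78 to 1.47, with 90 of 93 interferon-high UMIs in 1 cell. The intervals served to pick the genes and do not show that a direction turned across cells.

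The genes in this paragraph were picked because their direction turned, and on the list of 12 inflammatory cytokine genes none passed over the 3 libraries. Tnfaip3, a brake on NF-kappaB signalling, was at 3.11 at day 2, with UMIs in 17 of 31 interferon-high cells, and at -1.11 after reversal. Il1rn, the interleukin-1 receptor antagonist, was at 1.54 at day 2 (14 of 31 cells) and -1.12 after reversal (6 of 38 cells). Ptgs2, a prostaglandin synthase, was at 1.11 and -1.68, and Il6 at 1.502 and -3.60, the latter from 6 UMIs at day 2 and 0 after reversal, where 10 of 18 comparison UMIs came from 1 cell. Irg1, which makes the antimicrobial metabolite itaconate, was at 3.23 at day 2 (5 of 31 cells), 1.28 at day 7 (13 of 206 cells) and -2.23 after reversal (1 of 38 cells).

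Other differences rested on few cells. Ccl17 was at 1.13 at day 2, where 90 of 93 UMIs came from 1 cell (154 of 301 in comparison cells), and at -3.03 after reversal, where 84 of 211 comparison UMIs did. Ccl22 was at 3.83 at day 2, where 9 of 10 UMIs came from 1 cell, and at -2.69 after reversal, from 1 UMI against 35. Saa3 was at -3.28 at day 2, where 245 of 582 comparison UMIs came from 1 cell, at -3.13 at day 7, where 577 of 727 did, and at 6.71 after reversal, where 40 of 41 UMIs came from 1 interferon-high cell and none of 232 comparison cells had a UMI. In chemokine-led against Ifit-led cells, Retnla was at 1.46 at day 7, where 32 of 45 UMIs came from 1 cell, and at -3.39 after reversal, from 1 against 15 UMIs, of which 10 came from 1 Ifit-led cell.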

How the results depend on the processing

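For interferon-high against comparison cells, where 181 genes were higher and 63 lower, leaving out 1 library moved the higher count between 49 and 298 and the lower count between 12 and 143. Without the replicate block (the library term) both were 0, and 373 genes had an unadjusted p under 0.05, so these calls rest on the pairing within libraries. The lower count was 28 with DESeq2 and 23 against comparison cells with sums of 0 to 4. With no filter beyond 1 UMI the counts were 315 and 229, with cells of 3000 to 15000 UMIs 324 and 98, with C1q of at least 5 UMIs 98 and 21, and with a sum of at least 10 they were 118 and 30. The other settings left the higher count within 1.5 times in 12 of 19 and the lower count in 9 of 19.

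Between chemokine-led and Ifit-led cells, where 40 were higher and 105 lower, DESeq2 and the setting without endothelial and dendritic UMIs gave 0 and 0. Without the replicate block the counts were 2 and 32, with C1q of at least 5 UMIs 6 and 33, and with cells of 3000 to 15000 UMIs the higher count was 18. The lower count was 39 without doublet-scored cells, 60 with under 5 endothelial UMIs and 43 with Tyrobp and Fcer1g also at 0.1% of UMIs. Leaving out a library here leaves no residual degrees of freedom, and those values carry no test.

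With cells under 5 endothelial UMIs the log2 fold changes of Cdh5, Emcn, Esam, Pecam1 and Plvap in interferon-high cells turned to -1.76, -0.00682, -0.0983, -0.0878 and -0.0915. With Tyrobp and Fcer1g also at 0.1% they were -2.17 for Cdh5, -0.0480 for Emcn, -0.22 for Pecam1 and -0.11 for Plvap, and Col1a1, Col3a1 and Sfrp1 turned to 0.55, 0.0992 and 0.34. With few dendritic UMIs as well, in place of that limit, Cdh5, Egfl7, Esam, Pecam1 and Plvap were at -1.45, -0.22, -0.0267, -0.27 and -0.0206. In chemokine-led against Ifit-led cells, Ly6c1 turned to 0.0275 and 0.33 and Plvap to 0.15 and 0.13 under the first and second of these settings, Ccl17 to -1.53 without day 7 and Ccl2 to -0.44 without reversed UUO, against 3.04 without day 7. Fewer cells with endothelial RNA entered by construction, and the cause of the other changes was not tested.

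The shares at day 2, day 7 and reversal were 10.3%, 21.6% and 15.5% at a sum of at least 3, 4.67%, 5.87% and 4.60% at a sum of at least 10, and 2.10%, 3.97% and 2.91% when thinned to 2000 UMIs at a sum of at least 5. The sham share was 0 of 25 cells among those with C1q of at least 5 UMIs, which allows up to 12% by 3 cells of the total. With the mean of CPM per cell, the log2 ratio of Isg15 was 3.57 at day 2 and 3.22 after reversal and that of Gbp2 was 3.23 after reversal, and Gbp2 was at 3.47 at day 2 with a pseudocount of 10 CPM. Depth limits the sham library, with 33 gated cells, and genes near 1 UMI per cell.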
